A study of Mus musculus with 9 samples.

Results

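The miRNAs miR-192, miR-194 and miR-215 were followed through small RNA sequencing of the mouse left ventricle. All rows of the deposited table whose names start with miR-192-, miR-194- or miR-215- were taken, which gave 5 of 621 mature miRNA rows: mmu-miR-192-5p, mmu-miR-215-5p, mmu-miR-194-5p, mmu-miR-194-2-3p and mmu-miR-215-3p, written below without the mouse prefix. The 3 miRNAs were singled out when lower miR-215-5p and miR-194-5p counts in transgenic than in non-transgenic ventricles were already known. Their levels against non-transgenic ventricles are therefore a description, with no p-values. Where calls of fits to all rows against NTG are counted for them, the counts stand beside the share of all rows and are not evidence for the difference. Only the comparison between the transgenic lines is a test of these rows. The other arms of these hairpins, miR-192-3p and miR-194-1-3p, were not analysed here.

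MicroRNAs are short RNAs that are cut from a hairpin precursor and guide the silencing of messenger RNAs, mainly through a seed near their 5′ end. miR-192 and miR-215 share a seed and are often treated as one family, while miR-194 has another seed but is made from the same primary transcripts. The 3 miRNAs are best known as abundant miRNAs of the gut, liver and kidney, where factors of the HNF family switch them on, and as miRNAs that p53 can induce in human cells. They are not classed among the muscle miRNAs of the heart.

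The series compared 3 groups of 3 libraries of total RNA from the left ventricle of male mice aged 6 months, all on a C57BL/6J background. They were CaNrf2-High (TG-High), CaNrf2-Low (TG-Low) and non-transgenic (NTG) mice. Nrf2 is the main transcriptional activator of the antioxidant response. The sources used here give neither the promoter that drives the transgene nor whether each library came from a separate animal, and the transgene itself was not analysed here. Total counts ranged from 3620465 in TG-High replicate 2 to 11695744 in TG-High replicate 1. A p-value here reflects the spread between such libraries and no more, and that spread may be technical. All 5 miRNAs of a heart muscle list had rows, led by miR-499-5p at 17002 CPM (counts per 1000000 reads) on average. Single libraries weighed on the counts of passing miRNAs: in both lines against NTG 44 passed with all libraries, 14 without NTG replicate 0 and 108 without TG-Low replicate 2.

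The mature sequences show which rows share a seed. They are written 5′ to 3′ from RefSeq on GRCm38.p6, with the seed (bases 2 to 8) in capitals, and all 5 rows matched by name.
miR-192-5p: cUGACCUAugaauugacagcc
miR-215-5p: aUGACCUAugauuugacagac
miR-194-5p: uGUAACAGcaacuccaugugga
miR-194-2-3p: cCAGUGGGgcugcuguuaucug
miR-215-3p: uCUGUCAUucuguaggccaau
The seed of miR-192-5p and miR-215-5p was shared by these 2 miRNAs and no other among 1679 mature mouse miRNAs of the RefSeq table. Both are 21 bases long and have 18 bases in common. Counted from 1 at the 5′ end, with the base of miR-215-5p first and that of miR-192-5p after the position, the differences are A1C, U12A and A20C. The sources used here do not say how many mismatches the counting allowed, so some reads of one may have been assigned to the other. The seed of miR-194-5p was found in no other miRNA of that table.

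The hairpins show how the rows are tied together in the genome. They are written on the plus strand as RNA, with the annotated mature arms in capitals.
Mir194-1: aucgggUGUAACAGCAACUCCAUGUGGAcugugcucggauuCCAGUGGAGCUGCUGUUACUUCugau
Mir215: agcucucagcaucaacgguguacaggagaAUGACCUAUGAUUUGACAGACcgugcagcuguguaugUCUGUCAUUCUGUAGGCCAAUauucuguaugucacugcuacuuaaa
Mir194-2: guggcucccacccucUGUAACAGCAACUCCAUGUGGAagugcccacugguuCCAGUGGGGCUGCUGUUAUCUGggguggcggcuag
Mir192: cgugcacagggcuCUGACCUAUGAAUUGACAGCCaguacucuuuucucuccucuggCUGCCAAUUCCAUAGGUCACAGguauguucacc
In GRCm38, Mir194-1 lies at chr1:185313319-185313385 and Mir215 at chr1:185313581-185313692, 195 bases apart. Both lie within the antisense transcript gene 2010103J01Rik, Mir215 over one of its exons and Mir194-1 between its exons, and on the opposite strand to the protein-coding gene Iars2. Mir194-2 at chr19:6264643-6264728 and Mir192 at chr19:6264844-6264932 are 115 bases apart, and GENCODE M21 places no other gene over them. miR-194-5p has the same sequence in both hairpins, so its row cannot be assigned to either chromosome. miR-215-5p and miR-215-3p come from chromosome 1 only, and miR-192-5p and miR-194-2-3p from chromosome 19 only. The 3p arms of the 2 miR-194 hairpins share 18 of 22 bases.

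miR-192-5p supplied most reads of the group. It averaged 871 CPM over the 9 libraries and ranked 57 of 621 rows by mean CPM, and it held 90.4% to 95.7% of the summed CPM of the 5 rows in a library. miR-215-5p averaged 53.5 CPM (rank 189) and miR-194-5p 8.34 CPM (rank 302). The 3p arms were scarce, at 1.84 CPM for miR-194-2-3p (rank 445) and 0.610 CPM for miR-215-3p (rank 549), with 5 to 32 and 1 to 10 reads in a library. CPM of a row do not correct for differences in how well each sequence is captured, so the order of rows is one of reads. The sources used here do not say how reads that match several hairpins were counted. The level of miR-194-5p, and of any other row with several hairpins, may therefore be too low or too high. The same holds for its shares beside other rows. miR-215-3p was left out by the filter on low counts, and the other 4 rows passed it, as did 509 of 621 rows in all.

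miR-215-5p, the seed partner of miR-192-5p on chromosome 1, was lower in both transgenic lines. It stood at 26.5, 37.5 and 34.5 CPM in the TG-High libraries (replicates 0, 1 and 2), 42.3, 35.7 and 44.4 CPM in the TG-Low libraries, and 92.0, 81.0 and 87.3 CPM in the NTG libraries. Every transgenic library lay far below the lowest NTG library, and the levels of the lines overlapped each other. The means were 32.8 ± 5.71 CPM in TG-High, 40.8 ± 4.55 in TG-Low and 86.8 ± 5.52 in NTG (SD, n = 3 each). The log2 fold change was -1.40 ± 0.17 (SE) in TG-High against NTG, a 2.64-fold lower level, and -1.09 ± 0.17 in TG-Low against NTG, a 2.12-fold lower level. In bulk tissue, fewer cells of a type and less RNA per cell cannot be told apart.

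miR-194-5p, the miRNA that both hairpin pairs encode, was also lower in both lines. It stood at 4.01, 5.13 and 9.85 CPM in TG-High, 6.61, 5.97 and 5.62 CPM in TG-Low, and 13.0, 11.2 and 13.7 CPM in NTG. No transgenic library reached the NTG range, although TG-High replicate 2, the least deep library, came close with 36 reads. The log2 fold changes were -1.07 ± 0.29 in TG-High against NTG and -1.06 ± 0.28 in TG-Low against NTG. Without TG-High replicate 2 the first was -1.40, and without TG-High replicate 0 it was -0.77.

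miR-192-5p, the abundant member on chromosome 19, differed less. It stood at 713, 716 and 683 CPM in TG-High, 965, 689.5 and 912 CPM in TG-Low, and 1009, 984 and 1171 CPM in NTG. The TG-High libraries lay close together and far below the NTG libraries, whereas TG-Low replicates 0 and 2 lay just under the lowest NTG library and TG-Low replicate 1 among the TG-High values. The log2 fold change was -0.58 ± 0.14 in TG-High against NTG and -0.30 ± 0.14 in TG-Low against NTG. The TG-Low value was -0.17 without TG-Low replicate 1 and -0.38 without TG-Low replicate 2.

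The 3p arms had few reads. miR-194-2-3p, the passenger arm of the chromosome 19 hairpin, had 8, 11 and 5 reads in TG-High (1.15, 0.896 and 1.37 CPM), 14, 12 and 16 reads in TG-Low (1.71, 1.46 and 2.09 CPM) and 11, 26 and 32 reads in NTG (1.51, 3.04 and 3.31 CPM). The TG-High libraries lay below the others, while the TG-Low libraries overlapped NTG because of NTG replicate 0. Its log2 fold changes were -1.29 ± 0.39 in TG-High and -0.60 ± 0.35 in TG-Low against NTG. miR-215-3p, the passenger arm of miR-215, had 1, 9 and 2 reads in TG-High, 5, 1 and 1 in TG-Low, and 9, 8 and 10 in NTG. At this depth its difference rests on a few reads per library, and no fold change from the edgeR fits is given for it.

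**Figure D1:**
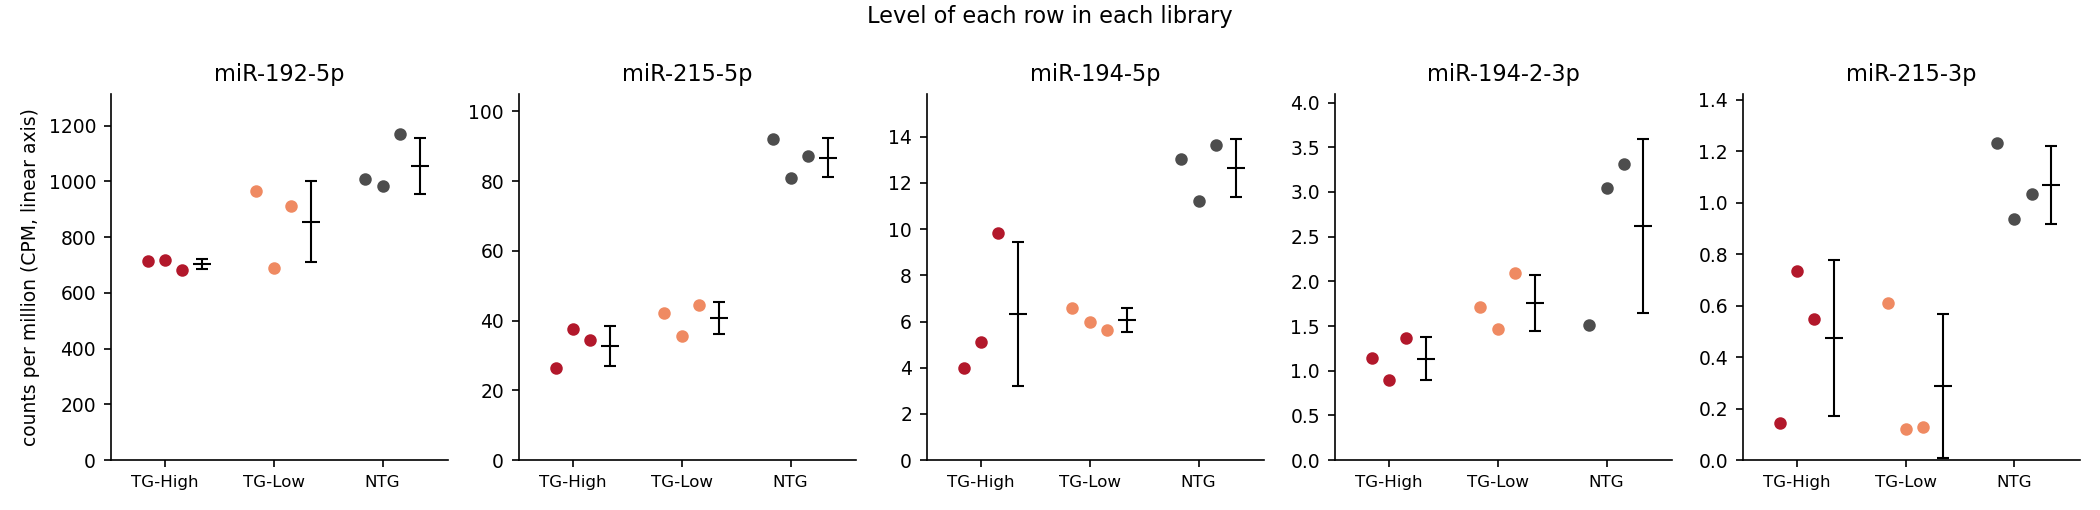
Level of the 5 rows in CPM on linear axes that start at 0, with 1 point per library and a bar for the mean ± SD of each group (n = 3). For miR-215-5p the 6 transgenic libraries lie between 26.5 and 44.4 CPM and the NTG libraries between 81.0 and 92.0 CPM, while for miR-192-5p the TG-Low libraries spread from 689.5 to 965 CPM.

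Over both lines together, the log2 fold changes against NTG were -1.23 ± 0.15 for miR-215-5p, -1.06 ± 0.23 for miR-194-5p, -0.89 ± 0.33 for miR-194-2-3p and -0.44 ± 0.14 for miR-192-5p. From the most negative value upwards they ranked 5, 9, 12 and 74 among 509 tested rows, whose median was 0.01. With edgeR's quasi-likelihood fit and a Benjamini-Hochberg adjusted threshold of 0.05, 2 of the 4 tested rows, miR-215-5p and miR-194-5p, passed in this comparison, where 8.64% of all tested rows did (3.93% lower and 4.72% higher). In TG-High against NTG all 4 passed, where 18.3% of all tested rows did (9.43% lower and 8.84% higher). In TG-Low against NTG miR-215-5p alone passed, where 1.57% of all tested rows did (0.196% lower and 1.38% higher). Every transgenic library lay below every NTG library for 3 rows in both lines together (9.23% of all tested rows), 4 in TG-High (19.3%) and 3 in TG-Low (10.4%). These comparisons share the NTG libraries and include the one that the miRNAs were chosen on, so the counts describe the choice. The number of the 4 rows that passed was 1 to 4 in TG against NTG, 1 to 4 in TG-High against NTG and 0 to 2 in TG-Low against NTG when each library was left out in turn. The number of all tested rows that passed moved with the same libraries and is given in brackets. In TG against NTG (44) it was 1 without NTG replicate 0 (14) or NTG replicate 2 (16) and 4 without TG-Low replicate 2 (108). In TG-High against NTG (93) it was 1 without TG-High replicate 0 (37) or NTG replicate 2 (52). It was 2 there without TG-High replicate 1 (44) or 2 (65). In TG-Low against NTG (8) it was 0 without TG-Low replicate 1 (0). In that refit the unadjusted p was under 0.05 for 2 of the 4, and for 67 of all tested rows. By DESeq2's Wald test 3 rows passed in both lines against NTG (14.2% of all rows with an adjusted p), 3 in TG-High against NTG (20.2%) and 2 in TG-Low against NTG (8.5%). In TG-Low against NTG DESeq2 gave miR-194-2-3p no adjusted p.

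In the authors' deposited table of both lines against NTG, miR-192-5p had a log2 fold change of -0.44 (SE 0.14), miR-215-5p -1.24 (SE 0.17) and miR-194-5p -1.08 (SE 0.25). For miR-194-2-3p and miR-215-3p the authors' deposited table gives -0.89 (SE 0.43) and -1.47 (SE 0.73), and the second of these rests on the 1 to 10 reads per library given above.

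The comparison of TG-High with TG-Low asks whether the lines differ from each other, and it uses no NTG library for the difference. None of the 4 tested rows passed edgeR's quasi-likelihood test, where 1.38% of all tested rows did. By an unadjusted p below 0.05 the count was also 0, where 8.06% of all tested rows had one. DESeq2's Wald test gave 0 as well, where 3.73% of its rows with an adjusted p passed, but it gave miR-194-2-3p no adjusted p. The log2 fold change of miR-215-5p was -0.31 ± 0.17, with a 95% interval from -0.68 to 0.06 (edgeR adjusted p = 0.622). That of miR-192-5p was -0.28 ± 0.14, from -0.60 to 0.03 (edgeR adjusted p = 0.622). Both intervals reach from a clearly lower level in TG-High to no difference. miR-194-5p had -0.01 ± 0.30, from -0.66 to 0.64 (edgeR adjusted p = 0.992), and miR-194-2-3p -0.70 ± 0.41, from -1.59 to 0.20 (edgeR adjusted p = 0.675). For miR-194-2-3p the 3 TG-High libraries lay below the 3 TG-Low libraries, as was the case for 9.04% of all tested rows.

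**Figure D2:**
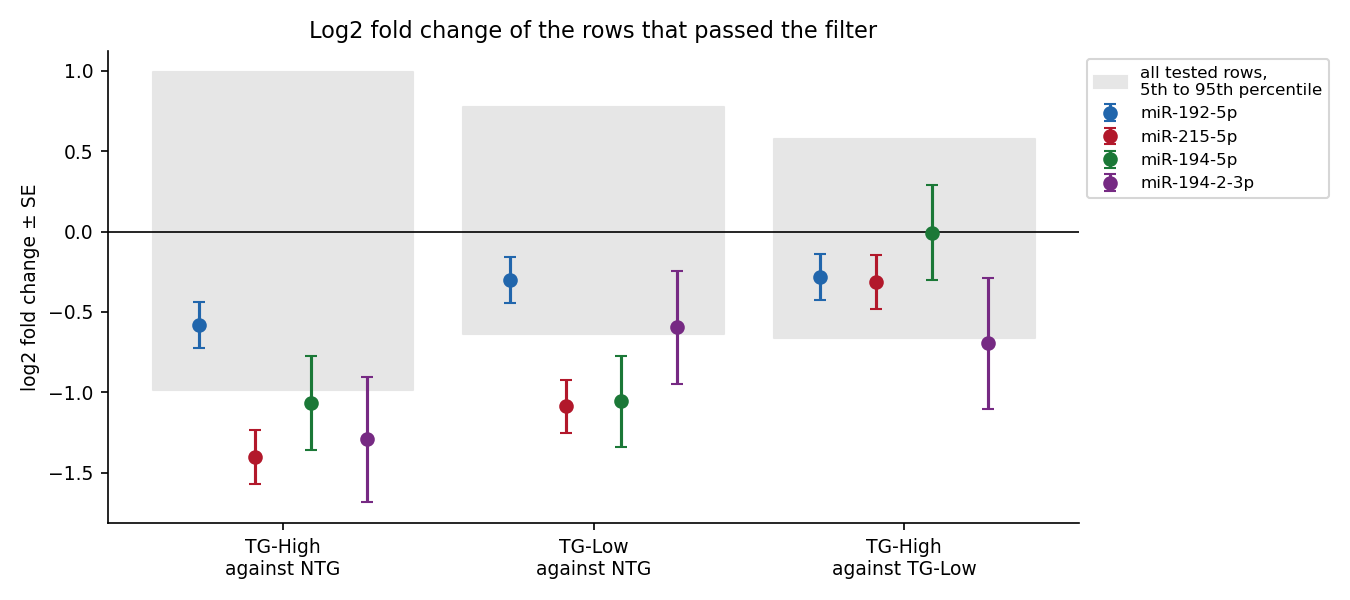
Log2 fold change ± SE of the 4 rows that passed the filter, by comparison, from edgeR fits over 509 rows; the grey band spans the 5th to 95th percentile of all tested rows. Against NTG, miR-215-5p and miR-194-5p lie below the band in both lines and miR-192-5p within it, and between the lines miR-194-5p lies near 0.

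Within a library, the balance between the seed partners can be read without any scaling between libraries. miR-215-5p made up 3.58%, 4.98% and 4.80% of the summed reads of miR-192-5p and miR-215-5p in TG-High, 4.20%, 4.92% and 4.65% in TG-Low, and 8.35%, 7.61% and 6.94% in NTG. The share was lower in every transgenic library than in any NTG library. The means were 4.46% ± 0.762 in TG-High, 4.59% ± 0.364 in TG-Low and 7.63% ± 0.706 in NTG (SD, n = 3 each). The 95% Wilson interval was widest in TG-High replicate 2, from 4.05% to 5.69% of 2623 reads, and such intervals cover counting error only, since reads are not independent molecules. Summed over miR-192-5p and miR-215-5p, the level of the shared seed was 737 ± 18.2 CPM in TG-High, 896 ± 150 CPM in TG-Low libraries and 1142 ± 103 CPM in NTG, and miR-192-5p supplied most of it in every group.

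miR-194-5p kept about the same balance with miR-215-5p in most libraries. It made up 13.1%, 12.0% and 22.2% of the summed reads of miR-194-5p and miR-215-5p in TG-High, 13.5%, 14.3% and 11.2% in TG-Low, and 12.4%, 12.2% and 13.5% in NTG. TG-High replicate 2 stood apart, and the other 8 libraries overlapped across groups. Against miR-192-5p, the share of miR-194-5p was 0.897% ± 0.460 in TG-High, 0.717% ± 0.127 in TG-Low and 1.19% ± 0.0775 in NTG. All transgenic libraries but TG-High replicate 2 (1.42%) lay below the NTG libraries in this share.

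The shares of the passenger arms were too thinly covered to separate the groups. miR-215-3p made up 1.34% ± 0.715 of the reads of both arms of miR-215 in TG-High, 0.686% ± 0.640 in TG-Low and 1.21% ± 0.0972 in NTG. miR-194-2-3p made up 16.4% ± 5.19 of the summed reads of miR-194-5p and miR-194-2-3p in TG-High, 22.5% ± 4.06 in TG-Low and 17.1% ± 5.86 in NTG. Between TG-High and TG-Low, exact two-sided permutation tests of the 5 shares gave p from 0.2 to 0.9 (0.75 to 0.9 with Benjamini-Hochberg adjustment over the 5), and 3 libraries against 3 cannot give less than 0.1.

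**Figure D3:**
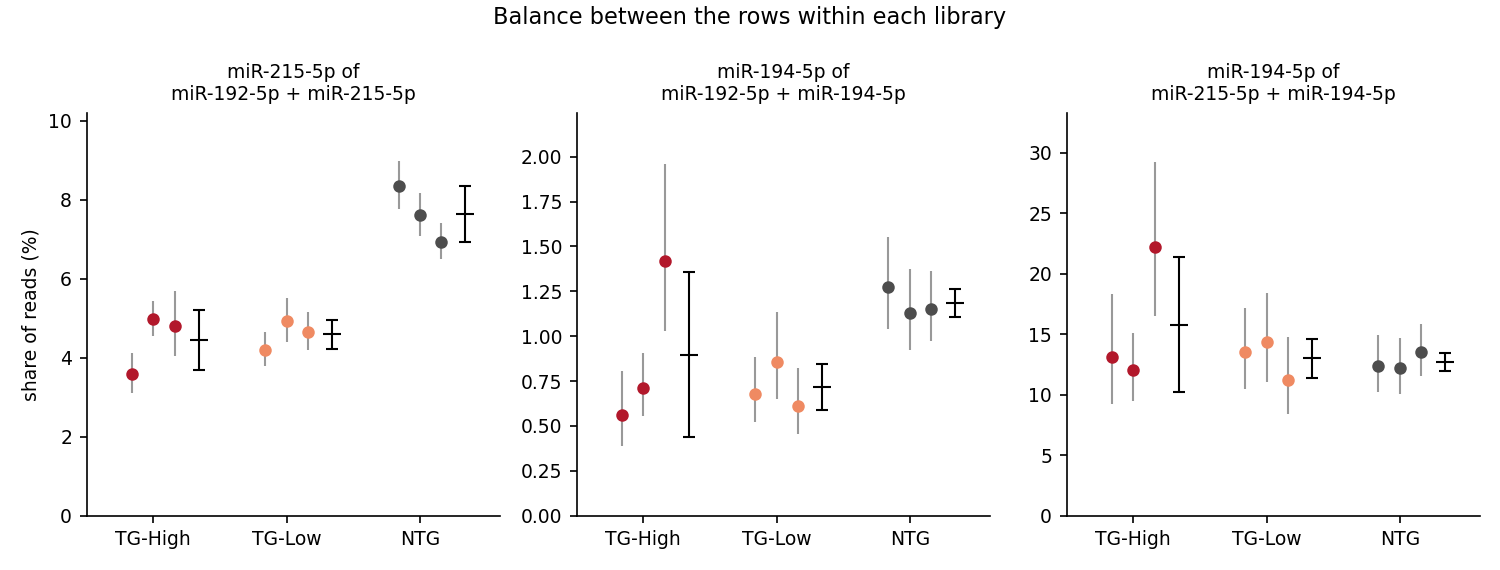
Share of reads in percent within each library for 3 pairs of rows, on axes that start at 0; grey lines are 95% Wilson intervals and black bars the mean ± SD of a group (n = 3). The share of miR-215-5p beside miR-192-5p is 3.58% to 4.98% in the transgenic libraries and 6.94% to 8.35% in NTG, while its balance with miR-194-5p overlaps between groups.

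The likeness of each row's pattern to others was measured as the root mean squared difference of log2 CPM, each row centred on its own mean over the 9 libraries, among 508 other tested rows. For miR-215-5p the closest rows were miR-3057-3p (0.24 on the log2 scale), miR-155-5p, which activated immune cells make (0.24), and miR-221-3p, a miRNA of vascular cells (0.25), where the median row was at 0.71. miR-194-5p ranked 6, miR-192-5p 28 and miR-194-2-3p 40 in this order. For miR-194-5p the closest rows were miR-3057-3p (0.21), miR-215-5p (0.32) and miR-92a-3p (0.32), a member of a cluster that promotes cell proliferation. miR-192-5p ranked 36 and miR-194-2-3p 53 there.

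miR-192-5p had other neighbours. Its closest rows were miR-450b-5p (0.10), miR-139-3p (0.12) and miR-20a-5p (0.13), with a median row at 0.42. Of its cluster and family partners, miR-194-2-3p ranked 170, miR-215-5p 241 and miR-194-5p 277 of 508. On this scale the prior count of 2 pulls rows with few reads toward their own mean. Its part in the closeness of rows was not tested. miR-3057-3p is a row with few reads, at 0.898 CPM in TG-High, 1.05 CPM in TG-Low hearts and 2.27 CPM in NTG hearts. The filter on low counts can also keep such a row through the NTG libraries alone, which favours scarce rows that are higher in NTG. The closeness of miR-3057-3p to miR-215-5p and miR-194-5p is therefore no evidence of a link. These distances describe the same 9 libraries from which the fold changes come.

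**Figure D4:**
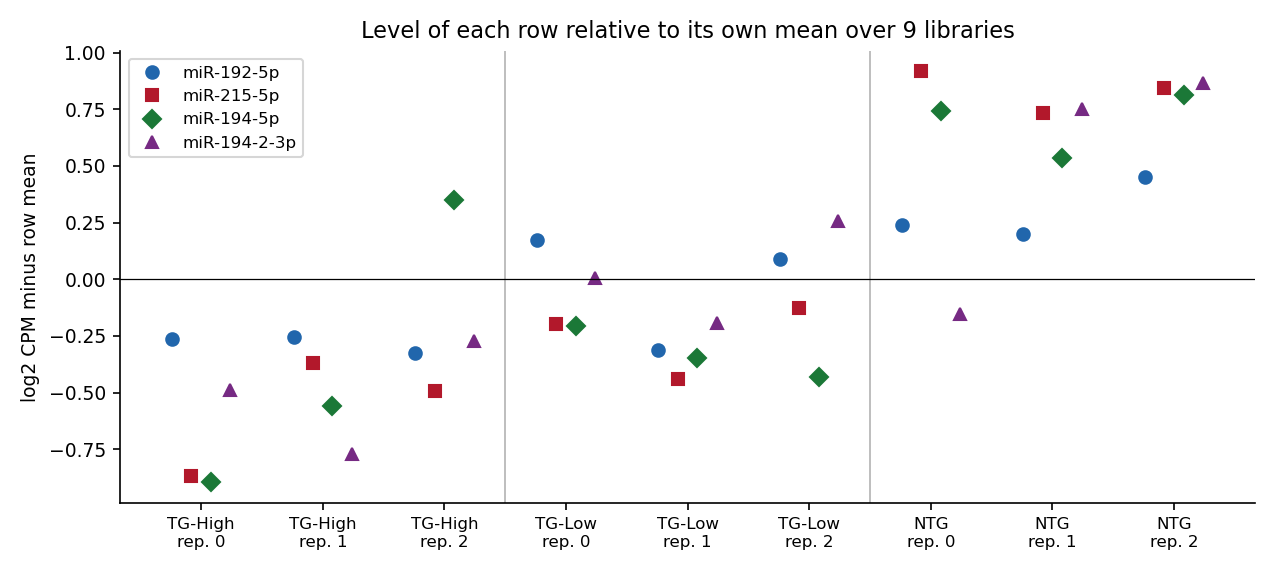
Log2 CPM of the 4 tested rows minus each row's mean, by library, with the groups separated by vertical lines. miR-215-5p and miR-194-5p lie together above their means in all 3 NTG libraries and below them in the transgenic libraries, except for miR-194-5p in TG-High replicate 2, and miR-192-5p stays within a narrower range.

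miRNAs of other cells moved in some of the same libraries. The marker lists used here and below were chosen with earlier results of these data known. Their calls and p-values are therefore a description and not fresh tests. A list of 15 miRNAs of organs and epithelia covered liver, kidney and gut, where miR-192, miR-194 and miR-215 are abundant, and also other epithelia. Of these 15, 14 had rows (17 in all, of which 11 were tested and 5 averaged under 1 CPM). Their summed level was 209 to 241 CPM in TG-High, 265 to 527 CPM in TG-Low libraries, and 315 to 399 CPM in NTG, and the most abundant row was miR-203-3p (246 CPM on average). The highest sum was in TG-Low replicate 2 and the lowest 3 were in TG-High. miR-122-5p, the defining miRNA of liver cells, was at 3.99 to 5.74 CPM in TG-High, 3.01 to 6.22 CPM in TG-Low libraries, and 2.47 to 7.14 CPM in NTG, and these ranges overlap. In TG-High against NTG miR-203-3p (-0.74 ± 0.20, edgeR adjusted p = 0.0277) and miR-200c-3p (-2.15 ± 0.40, edgeR adjusted p = 0.00484) fell and miR-96-5p rose (1.29 ± 0.30, edgeR adjusted p = 0.0144), so that 2 of 11 fell and 1 rose, where 9.43% of all tested rows fell and 8.84% rose. The median log2 fold change of the 11 was -0.08 there, where that of all tested rows was -0.01. In TG-Low against NTG edgeR called 0 of the 11 (DESeq2 called 0, and 1 had an unadjusted edgeR p below 0.05). Among all tested rows edgeR called 1.57% there, and 88 of 509 had such an unadjusted p. DESeq2 called 8.5% of its rows with an adjusted p.

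Blood cell miRNAs were lowest in TG-High as well. Their 9 rows summed to 1566 to 1673 CPM in TG-High libraries, 2253 to 3115 CPM in TG-Low libraries and 2937 to 3794 CPM in NTG libraries. In TG-High against NTG 5 of the 9 fell and 1 rose, where 9.43% of all tested rows fell and 8.84% rose. The erythroid miR-451a (-1.83 ± 0.26, edgeR adjusted p = 0.00122) and the lymphocyte miR-150-5p (-1.08 ± 0.13, edgeR adjusted p = 0.000724) were among those that fell, and miR-223-5p rose (0.93 ± 0.29, edgeR adjusted p = 0.0492). The median of the 9 was -1.08, beside the same -0.01 for all tested rows. In TG-High against TG-Low 3 of the 9 fell, namely miR-144-3p, miR-451a and miR-150-5p, where 1.38% of all tested rows passed in either direction. In TG-Low against NTG edgeR called 0 of the 9 (DESeq2 called 1, and 1 had an unadjusted edgeR p below 0.05). Beside these stand 1.57% of all tested rows by edgeR, 8.5% by DESeq2 and 88 of 509 at such an unadjusted p. Of the remaining marker lists, miR-499-5p of 10 tested heart muscle rows, miR-126a-5p of 2 endothelial rows and miR-145a-3p of 4 smooth muscle rows fell in TG-High against NTG by edgeR's test, and miR-214-5p of 3 fibroblast rows rose. The heart muscle rows, led by miR-499-5p, also summed lowest in TG-High, at 13195 to 16868 CPM. They summed to 19633 to 23344 CPM in TG-Low and 22666 to 26623 CPM in NTG. The median log2 fold change of the 10 tested was 0.10 in TG-High against NTG. Endothelial and smooth muscle sums overlapped between the groups, and the highest fibroblast sum was in TG-High. The part of these cells in the levels of miR-192, miR-194 and miR-215 was not tested.

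Among 8 other miRNAs described as induced or processed with the help of p53, mostly in human cells, 7 had rows and 13 rows were tested. This list, too, was chosen with earlier results known, so its calls and p-values are a description. In TG-High against NTG 5 of the 13 rose, and miR-145a-3p fell (-0.55 ± 0.15), by edgeR's test, beside the 8.84% of all tested rows that rose and the 9.43% that fell. Those that rose were miR-34c-3p (1.54 ± 0.40), miR-34c-5p (1.22 ± 0.25), miR-34b-3p (1.28 ± 0.29), miR-34b-5p (1.23 ± 0.38) and miR-16-1-3p (0.51 ± 0.15). Both arms of miR-34b and of miR-34c are among them, and arms of the same hairpin are not independent rows. In both lines against NTG, miR-34c-5p rose (1.04 ± 0.24, edgeR adjusted p = 0.0197) and was the only one of the 13 that edgeR called. DESeq2 called 4, and 5 had an unadjusted edgeR p below 0.05. Among all tested rows edgeR called 8.64%, and 157 of 509 had such an unadjusted p. DESeq2 called 14.2% of its rows with an adjusted p. The 13 rows had a median log2 fold change of 0.05, where the median of all tested rows was 0.01. In TG-Low against NTG edgeR called 0 of the 13 (DESeq2 called 1, and 4 had an unadjusted edgeR p below 0.05). Among all tested rows edgeR called 1.57% there, and 88 of 509 had such an unadjusted p. DESeq2 called 8.5% of its rows with an adjusted p. Any part of p53 in the levels of miR-192, miR-194 and miR-215 was not tested.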

How the data were processed

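The deposited table holds raw read counts of 621 mature miRNAs in 9 libraries, per the file headers, with the authors' mean normalized signal (not used), log2 fold change and its standard error, Wald statistic as a score, p-value and adjusted p. Tools listed in the submitters' processing notes are Novoalign, SAMtools, Trim Galore 0.4.0, bcl2fastq 1.8.4 and DESeq2 1.18.1, with the build mm10 (GRCm38). The sources used here do not give their roles, the counting tool, strand, mismatches allowed, the handling of reads that match several hairpins, or the miRNA annotation.

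Counts were tested with edgeR 4.0.16 (limma 3.58.1, R 4.3.3) by the quasi-likelihood test with TMM scaling, on 509 rows that filterByExpr kept at a minimum count of 10, with Benjamini-Hochberg adjustment at 0.05. TG against NTG used 2 groups and the other comparisons a 3-group model. The edgeR fits were also run on simulated counts with the same change in both lines. No outcome is given here, and those counts were not made to carry the weight of single libraries seen above. CPM use TMM scaling, and log2 CPM a prior count of 2. Libraries of a group differed by more than counting error (chi-square of their counts 44.5 to 456 per degree of freedom). This does not show that they came from separate animals. Sequences are from RefSeq, positions from RefSeq and GENCODE M21, both on GRCm38. Plots used Python 3.11.15.

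The miRNAs and the marker lists (matched by name, both arms) were chosen with earlier results of these data known. Rows named are the members, the 3 closest rows to each of miR-215-5p, miR-194-5p and miR-192-5p, the rows of the lists that pass, and the most abundant row of each list: miR-126a-3p (endothelium), miR-143-3p (smooth muscle, and p53), miR-214-3p (fibroblasts) and miR-451a (blood), beside those in the text. Alternatives were DESeq2 size factors, DESeq2 1.42.0, no filter, no top 5 rows, each library left out, and the replicate number as a block.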

Additional observations from a re-analysis of the deposited data

Results flagged for a closer look

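In the 6 transgenic libraries, TG-High replicate 2 stood apart in 2 of 10 measures checked with Dixon's test at 6 libraries (critical value 0.625), where chance gives about 1 in 20. Its share of miR-194-5p beside miR-215-5p was 22.2% (95% Wilson interval 16.5% to 29.2%, 36 of 162 reads), while the other 5 had 11.2% to 14.3%, a gap of 0.718 of the range. Its share of miR-194-5p beside miR-192-5p was 1.42% (1.03% to 1.96%), while the other 5 had 0.559% to 0.859%, a gap of 0.652 of the range. Both rest on the same 36 reads in the least deep library.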

How the results depend on the processing

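Of 224 refitted log2 fold changes of the 4 tested rows, all but 8 kept their direction and, between the lines, their side of the threshold or, against NTG, moved by less than the spread between replicates. The 8 were miR-215-5p in TG-High against NTG, at -1.21 without TG-High replicate 0, and, 7 times, the sign of miR-194-5p in TG-High against TG-Low. Its value there was -0.01, and it became 0.0071 with DESeq2 size factors, 0.011 without the 5 most abundant rows, 0.0054 with no filter, 0.28 without TG-High replicate 0, 0.090 without TG-High replicate 1, 0.085 without TG-Low replicate 0 and 0.040 without NTG replicate 2, and it was -0.34 without TG-High replicate 2.

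Counts of all called miRNAs moved more. With DESeq2's Wald test they were 71 in TG against NTG (44 in the edgeR fit), 29 in TG-Low against NTG (8) and 12 in TG-High against TG-Low (7). With no filter they were 21 in TG-Low against NTG and 25 in TG-High against TG-Low. With each library left out they ranged from 14 to 108 in TG against NTG, 37 to 114 in TG-High against NTG (93), 0 to 18 in TG-Low against NTG and 0 to 10 in TG-High against TG-Low. The edgeR counts of 0 came without TG-Low replicate 1 (67 at an unadjusted p under 0.05) and without TG-High replicate 0 (31). The cause was not tested.

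No clear pairing of the libraries by replicate number was seen: correlations of same-numbered libraries' deviations ran from -0.17 to 0.23, with 3 of 9 over 0.1, and 4 of 9 libraries correlated best with their own number. With so few libraries per group, this check cannot exclude pairing. With the replicate block the counts were 35, 75, 11 and 6 in TG against NTG, TG-High against NTG, TG-Low against NTG and TG-High against TG-Low, and 3 of the 4 rows passed in TG-High against NTG (4 without the block, the difference being miR-194-2-3p). Depth limits the 3p arms, with at most 32 reads in a library.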
